A study of Mus musculus with 12 samples.

Results

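The SLAM family is a set of immunoglobulin-like receptors on blood cells, and the 6 genes described here belong to it or work beside it: Cd244a, Slamf1, Ly9 and Cd48 of the family, Sh2d1a, which encodes the adaptor SAP, and Crtam, a separate receptor of activated T cells and natural killer (NK) cells. They were matched by gene symbol to the probe sets of a mouse Affymetrix array. Of the 6 genes, 5 had a probe set, 1 each, and all 5 probe sets were bright enough to be tested, among 8251 genes with a probe set of their own in the whole table. Slamf1 was matched by no probe set of the annotation used and is not analysed here. The genes were chosen from measured differences between the same groups of arrays that are compared below, so their differences and calls are a description and support nothing beyond it.

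Expression was measured on 12 arrays of thymocytes recovered on day 6 from RTOC, in which dissociated thymic stroma and thymocytes form an aggregate that is cultured as a small organ. The OT1 group held thymocytes with the OT1 receptor, a transgenic T cell receptor for an ovalbumin peptide on a class I molecule, with no peptide named in the labels. The HY_low and HY_high groups held thymocytes with the HY receptor, a transgenic receptor for a male peptide from Smcy, cultured with the Smcy peptide at 1e-07 M and at 1e-05 M. Each group had 4 arrays, numbered 1 to 4. The labels give neither the strain, age or sex of the mice nor the source of the stroma, and they do not say whether the replicates are independent cultures. The p-values therefore cover the spread between arrays, which may be technical. Receptor and peptide change together between OT1 and either HY group and cannot be told apart there. The titles of the 2 HY groups also carry different, unexplained letters, which cannot be told apart from the dose.

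SLAM receptors mostly recognise a copy of themselves on the neighbouring cell, and their tails recruit SAP, which brings in the kinase Fyn. In the thymus this signalling between thymocytes is known for its part in the selection of NKT cells and other innate-like T cells. Cd244 (2B4) is the exception in binding another member, Cd48, which in the mouse is also the ligand of Cd2. Crtam binds Cadm1, an adhesion molecule of the nectin-like family. The array values are the deposited intensities, on a linear scale whose lowest value is 1 and whose median is 3.71. Levels of different probe sets cannot be set against each other, and less RNA per cell cannot be told apart from fewer cells of a type.

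The thymocyte label was checked first. Of 9 T cell and thymocyte markers 8 were measured, with a summed intensity of 1260 to 1720 in OT1, 1100 to 2140 in HY_low and 688 to 1260 in HY_high. Of these, Thy1 was lower in HY_high within 4 of 4 numbers against both other groups (geometric mean 234, against 541 in OT1 and 555 in HY_low) and passed only with the array number as a block (limma adjusted p = 0.00564 against OT1 and 0.0126 against HY_low). Cd8a, lower within 4 of 4 as well (157, against 340 and 339), did not pass, and neither did the other 6. Markers of thymic epithelium and fibroblasts (9 of 9 measured) summed to 42.0 to 67.1, 48.9 to 86.3 and 43.8 to 64.0 in that order, and those of macrophages and dendritic cells (11 of 11) to 26.0 to 34.4, 28.8 to 65.2 and 30.7 to 46.0. B cell markers (6 of 7) summed to 91.2 to 1010 in OT1, 81.6 to 635 in HY_low and 159 to 530 in HY_high, with Ighm the brightest. Arrays of the same number deviated together from their group means (correlations of 0.341 to 0.593 over 12 pairs), so differences are given within numbers as well. The share of values at 1 ran from 3.0% to 22.5% of an array, and on array 2 of OT1, HY_low and HY_high it was 19.0%, 5.18% and 3.0%.

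Cd244a and Cd48, receptor and ligand, lie in the same cluster of SLAM genes on chromosome 1, and their arrays differ in what they show: the first was higher in HY_high than on any other array, and the second had overlapping groups. Their promoters are therefore shown side by side. Both come from the RefSeq annotation of GRCm38.p6 and run from 250 bases before to 50 bases after the annotated start, on the plus strand, at chr1:171558943-171559242 for Cd244a and chr1:171681742-171682041 for Cd48. Capitals mark matches, on either strand, to TGANTCA (the letters bound by AP-1), TGTGGT (RUNX) and GGTGTGA (a T-box half-site).
Cd244a: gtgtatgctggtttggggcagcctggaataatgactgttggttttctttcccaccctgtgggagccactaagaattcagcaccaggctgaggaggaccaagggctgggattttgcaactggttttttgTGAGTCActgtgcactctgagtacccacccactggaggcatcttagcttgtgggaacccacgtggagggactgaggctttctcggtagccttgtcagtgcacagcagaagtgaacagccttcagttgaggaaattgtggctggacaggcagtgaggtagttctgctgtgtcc
Cd48: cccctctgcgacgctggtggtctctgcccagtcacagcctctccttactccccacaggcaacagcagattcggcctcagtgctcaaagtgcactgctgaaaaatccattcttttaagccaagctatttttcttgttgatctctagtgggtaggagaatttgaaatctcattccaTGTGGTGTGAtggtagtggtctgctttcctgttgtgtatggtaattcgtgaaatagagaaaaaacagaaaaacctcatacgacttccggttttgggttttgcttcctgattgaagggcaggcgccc

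The Cd244a window holds 1 match to the AP-1 letters, 122 bases before the start, and no match to the RUNX or T-box letters. The Cd48 window holds 1 RUNX match, 76 bases before the start, which overlaps the 1 T-box match, and no AP-1 match. CANNTG, the E-box, which is not marked, was matched at 3 places in Cd244a and at 1 in Cd48, where it overlaps the RUNX match. Of 32851 promoter windows of this length, 7.81% hold the AP-1 letters, 16.8% the RUNX letters, 3.98% the T-box letters and 72.3% an E-box. The motifs were picked with the sequences in view, and a match is a run of letters, not a measured site.

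Cd244a, which encodes the receptor 2B4 of NK cells and of some T cells, was the SLAM gene with the widest separation of the groups. Its intensity on arrays 1 to 4 was 2.16, 3.85, 2.70 and 3.75 in OT1. In HY_low it was 6.88, 1.98, 2.41 and 1.75. In HY_high it was 15.93, 22.56, 14.21 and 18.92. All HY_high arrays thus lay above all arrays of both other groups, which overlapped each other, and HY_low array 1 stood above the rest of its group. The geometric mean went from the 44.2nd percentile of all probe sets in HY_low (2.75, SD of log2 0.90, n = 4) to the 80.3rd in HY_high (17.6, SD 0.29), with OT1 at 3.03 (SD 0.40).

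The log2 difference of Cd244a was 2.68 ± 0.49 (SE) between HY_high and HY_low, or 6.40-fold. Within the numbers HY_high was 2.32-fold, 11.4-fold, 5.90-fold and 10.8-fold above HY_low, so array 1 had the smallest step. Against OT1 the log2 difference was 2.54 ± 0.49, or 5.82-fold, and the steps within numbers were more even, from 5.05-fold to 7.37-fold. HY_low differed from OT1 by -0.14 ± 0.49, higher within 1 number and lower within 3. Of the 8695 probe sets tested, 5 were higher in HY_high by more than Cd244a against HY_low, and 24 against OT1, while 1 and 4 were lower by more than that size. All 8 arrays outside HY_high lay below 8. With every intensity under 8 set to 8 both differences involving HY_high were 1.14.

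**Figure D1:**
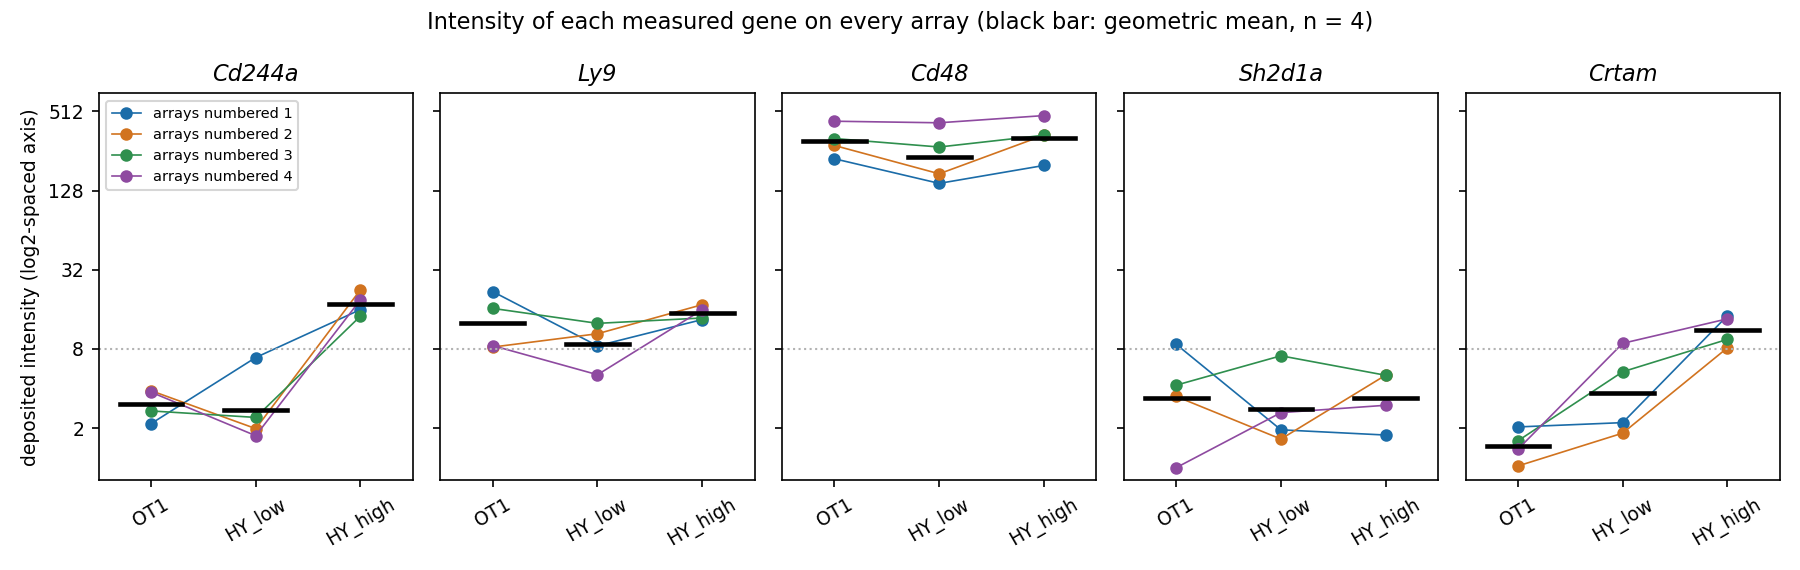
Deposited intensity on a log2-spaced axis for each of the 5 measured genes, by group, with arrays of the same number joined by a line, black bars at the geometric means of 4 arrays and a dotted line at 8. The HY_high arrays of Cd244a lie between 14.21 and 22.56, above every array of the other groups, while Cd48 lies above 145 throughout and Sh2d1a near the bottom of the scale.

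Ly9, a SLAM receptor that binds itself between neighbouring cells, showed smaller differences. OT1 arrays 1 to 4 read 21.81, 8.26, 16.26 and 8.47. HY_low arrays read 8.44, 10.43, 12.51 and 5.09. HY_high arrays read 13.37, 17.35, 13.74 and 15.86. HY_high thus lay just above HY_low without overlap, and inside the range of OT1. The log2 difference of HY_high from HY_low was 0.79 ± 0.45, higher within 4 of 4 numbers by 1.10-fold to 3.12-fold. From OT1 it was 0.26 ± 0.45, higher within 2 numbers and lower within 2, and HY_low differed from OT1 by -0.54 ± 0.45. The spread within HY_high (SD of log2 0.18) was below that in OT1 (0.70) and HY_low (0.56).

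Cd48, the lipid-anchored ligand of 2B4 and of Cd2, was bright in every group, at the 97.8th percentile of probe sets or above. Intensities were 223.2, 281.7, 318.14 and 430.82 on OT1 arrays 1 to 4. They were 145.08, 171.59, 274.3 and 419.17 in HY_low, and 198.56, 337.01, 336.92 and 475.55 in HY_high. The groups overlapped throughout, and in each of them array 1 was lowest and array 4 highest. The log2 differences were 0.48 ± 0.43 for HY_high against HY_low, 0.08 ± 0.43 for HY_high against OT1 and -0.40 ± 0.43 for HY_low against OT1. With the array number as a block the SE of each was smaller, 0.19. None passed there either (limma adjusted p = 0.37, 0.922 and 0.597 in that order). Cd48 was higher in HY_high than in HY_low within 4 of 4 numbers, by 1.13-fold to 1.96-fold, and lower in HY_low than in OT1 within 4 of 4.

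Sh2d1a encodes SAP, the small SH2 adaptor through which Slamf1, Ly9 and 2B4 signal. Its probe set was dim, with 11 of 12 arrays below 8. OT1 arrays 1 to 4 read 8.67, 3.48, 4.24 and 1. HY_low arrays read 1.94, 1.65, 7.09 and 2.62, and HY_high arrays 1.77, 5.05, 5.04 and 2.98. The groups overlapped in all 3 comparisons, the geometric means were 3.36, 2.78 and 3.40, and the log2 differences of 0.29, -0.28 and 0.02 (HY_high from HY_low, HY_low from OT1, HY_high from OT1) each had an SE of 0.64. At this signal a change of SAP transcript smaller than the spread was not measurable.

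Crtam, an immunoglobulin-like receptor that T cells and NK cells display after activation, was ordered OT1, HY_low, HY_high. OT1 arrays 1 to 4 read 2.04, 1.03, 1.6 and 1.38. HY_low arrays read 2.2, 1.83, 5.36 and 8.82, and HY_high arrays 14.29, 8.15, 9.45 and 13.54. HY_high lay above all OT1 arrays and met HY_low only through HY_low array 4, which stood above HY_high array 2. HY_low and OT1 overlapped, with HY_low arrays 1 and 2 near OT1 and arrays 3 and 4 above it.

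The geometric mean of Crtam was 1.47 in OT1 (SD of log2 0.41, n = 4), 3.71 in HY_low (1.07) and 11.1 in HY_high (0.39). The log2 difference between HY_high and OT1 was 2.91 ± 0.52, or 7.53-fold, with steps of 5.91-fold to 9.81-fold within the numbers. It was 1.57 ± 0.52 between HY_high and HY_low and 1.34 ± 0.52 between HY_low and OT1, each higher within 4 of 4 numbers. In HY_high against HY_low the larger steps were those of arrays 1 and 2 (6.50-fold and 4.45-fold, against 1.76-fold and 1.54-fold for arrays 3 and 4). In HY_low against OT1 arrays 3 and 4 had the larger ones (3.35-fold and 6.39-fold, against 1.08-fold and 1.78-fold). The sizes rest on dim values: with intensities under 8 set to 8 the differences of HY_high were 0.43 from HY_low and 0.47 from OT1.

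**Figure D2:**
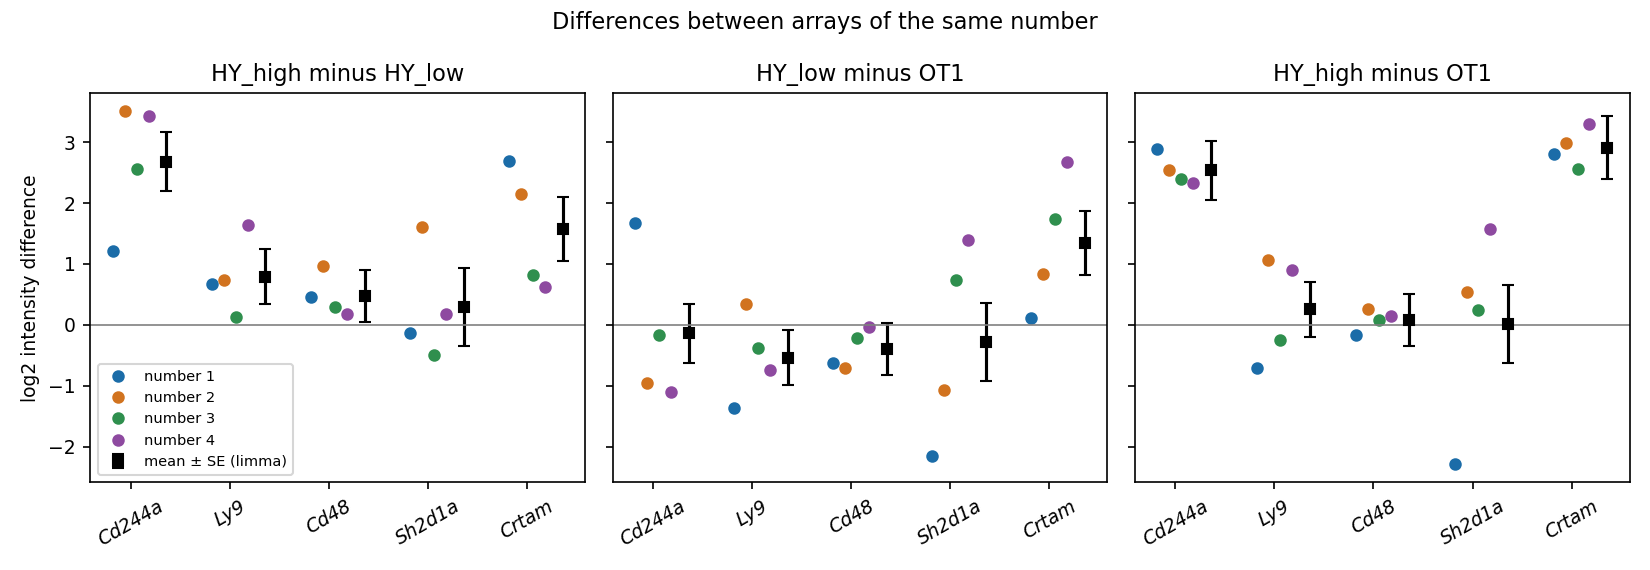
Log2 intensity differences of the 5 genes in the 3 comparisons, as coloured points for arrays of the same number and a black square for the mean with its limma SE (n = 4 per group). The SE is that of the fit without the block, so it also holds the spread between array numbers. Cd244a and Crtam are above 0 within all 4 numbers in both comparisons that involve HY_high, and the points of Sh2d1a lie on both sides of 0 in all 3.

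The calls of a limma fit over all probe sets, at a Benjamini-Hochberg adjusted p under 0.05, are given as counts beside those of the whole table, and nothing is read from them because the same contrasts chose the genes. Between HY_high and HY_low 0 of 5 genes passed, where 0.023% of all probe sets did, and 2 of 5 had an unadjusted p under 0.05, where 2.96% of all did. With the array number as a block 1 of 5 passed, Cd244a, against 0.345%. In that blocked fit 4 of 5 had an unadjusted p under 0.05, for which the share of all probe sets was not counted. Without HY_low array 1, which was the brightest of its group for Cd244a, 1 of 5 passed in the fit that has no block, again Cd244a.

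Between HY_high and OT1, 2 of 5 passed, Cd244a and Crtam, against 0.173% of all probe sets, and the same 2 passed with the block, against 1.36%. The count was 0 without any 1 of OT1 arrays 2, 3 and 4 or of the 4 HY_high arrays, and 1 without OT1 array 1 or HY_low array 3. The differences themselves moved little when any 1 of the 8 arrays of these groups was left out: that of Cd244a stayed within 2.38 to 2.66 and that of Crtam within 2.74 to 3.07. Between HY_low and OT1 none of the 5 passed in limma, against 0.023% of all probe sets, or 0.092% with the block, where again 0 passed. An unadjusted p under 0.05 was found there for 1 of 5, Crtam, against 2.65% of all. The group in the numerator lay wholly above the other for Cd244a and Ly9 between HY_high and HY_low (1.24% of all probe sets), for Cd244a and Crtam between HY_high and OT1 (1.52%), and for 0 genes between HY_low and OT1 (0.886%). The median log2 difference of the 5 genes was 0.79, 0.26 and -0.28 in HY_high against HY_low, HY_high against OT1 and HY_low against OT1, and that of all probe sets 0.01, 0.02 and 0.01. The comparisons share groups of arrays, so their values are not independent.

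The genes differed in where their spread lay. Groups took 85.2% of the sum of squares of log2 intensity over the 12 arrays for Cd244a and 79.3% for Crtam. For Cd48 the array numbers took 75.9% and the groups 16.1%. Its geometric mean over the groups was 186.0 on arrays numbered 1, 253.5 on those numbered 2, 308.6 on those numbered 3 and 441.2 on those numbered 4. Ly9 had 34.4% between groups and 22.3% between numbers, and Sh2d1a had 2.29% and 32.3%. The shares of other probe sets were not computed, and some share falls to groups and numbers even where neither has an effect.

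**Figure D3:**
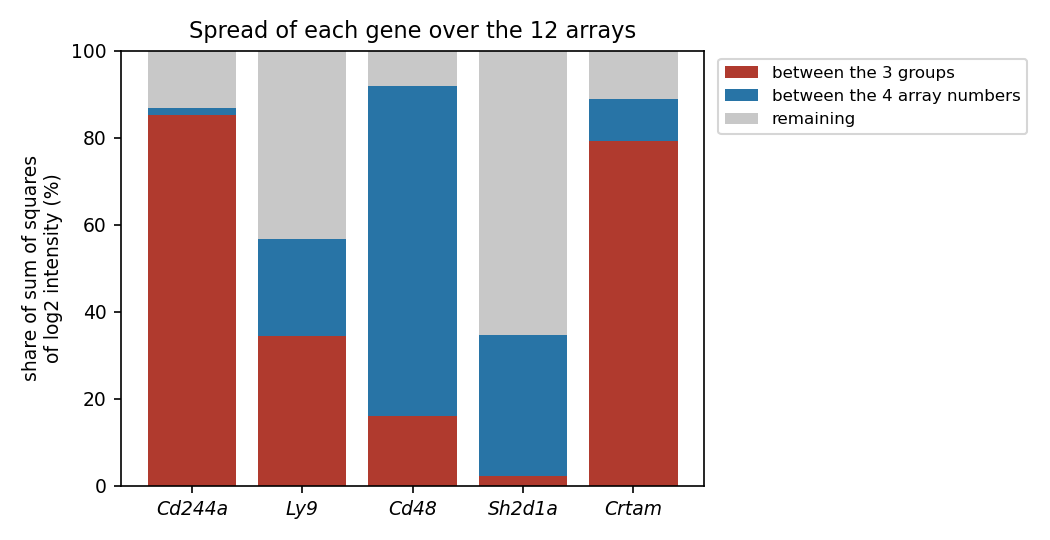
Stacked bars of the share of the sum of squares of log2 intensity, in percent, that lies between the 3 groups, between the 4 array numbers and in the remainder, for each of the 5 genes over 12 arrays. Groups hold most of it for Cd244a and Crtam, array numbers for Cd48 (75.9%), and the remainder for Sh2d1a (65.4%).

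The other genes of these pathways were taken from lists written by function, 29 in all, of which 16 were measured and 12 tested. In limma 0 of 12 passed in HY_high against HY_low (0 at an unadjusted p under 0.05), 0 in HY_low against OT1 (0 unadjusted), and 0 in HY_high against OT1 (1 unadjusted, Nectin2). Of all probe sets 0.023%, 0.023% and 0.173% passed in that order, and 2.96%, 2.65% and 4.08% had an unadjusted p under 0.05. With the array number as a block the counts were 0, 0 and 1, where 0.345%, 0.092% and 1.36% of all probe sets passed. Under the block 2, 0 and 3 of 12 had an unadjusted p under 0.05, for which the share of all probe sets was not counted. The median log2 difference of the 12 was 0.19, 0.02 and 0.07 in the same order. Of the other SLAM receptors (Slamf6, Slamf7, Slamf8, Slamf9, Cd84) 0 had a probe set.

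Cd2, the adhesion receptor of T cells that shares the ligand Cd48 with 2B4, was the gene that passed with the block. Its intensity was 279.09, 99.26, 230.93 and 235.87 on OT1 arrays 1 to 4. HY_low had 346.62, 91.54, 274.87 and 194.45, and HY_high 267.95, 49.78, 84.64 and 73.54. HY_high was the lowest of the 3 arrays of its number within 4 of 4 numbers. The groups overlapped, and in each of them array 1 was highest and array 2 lowest. In HY_high against OT1 the log2 difference was -1.05 ± 0.55 (limma adjusted p = 1, or 0.0402 with the block), and against HY_low it was -1.09 ± 0.55 (adjusted p = 1, or 0.0726 with the block). Without HY_high array 1 these differences were -1.54 and -1.58, and without HY_high array 2 they were -0.73 and -0.775. HY_low differed from OT1 by 0.04 ± 0.55.

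The kinase Fyn, which SAP recruits, had geometric means of 33.9 in OT1, 34.4 in HY_low and 46.9 in HY_high. Its log2 difference of 0.45 ± 0.53 between HY_high and HY_low did not pass (limma adjusted p = 1, or 0.524 with the block), with HY_high higher within 4 of 4 numbers. Prkcq, a protein kinase C of the T cell receptor pathway that also acts downstream of SAP, had -0.54 ± 0.46 in the same comparison (adjusted p = 1, or 0.370 with the block), lower within 4 of 4, and its dimmer probe set gave -0.36. The SAP relative Sh2d1b1 was dim in all groups, with geometric means of 2.99, 2.97 and 2.85. Inpp5d, the lipid phosphatase SHIP-1, went from 6.35 in OT1 through 8.76 to 13.3 in HY_high without passing (log2 difference from OT1 1.07 ± 0.74, adjusted p = 1), and its other probe set gave 0.52.

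Cadm1, the ligand of Crtam, lay below 10 on all arrays, with geometric means of 5.73 in OT1, 3.91 in HY_low and 5.63 in HY_high. Its log2 difference of 0.53 ± 0.51 between HY_high and HY_low did not pass (limma adjusted p = 1). On its dimmer probe sets the difference was 0.76 and 0.25, the latter too dim to be tested. Nectin2, of the related nectin family, had 3.70, 7.37 and 10.4, a log2 difference of 1.5 ± 0.60 between HY_high and OT1 that did not pass (adjusted p = 0.987), and 0.76 on its dimmer probe set. Cd96, a receptor for nectin-like ligands on T cells and NK cells, had 25.7, 24.6 and 32.0. Zbtb16, which encodes PLZF, the transcription factor of NKT cells, was too dim to be tested, with a highest value of 5.98 (HY_high array 4) on its brighter probe set. The highest value on its dimmer probe set was 2.38, in OT1. Scrib had no probe set in the annotation.

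**Figure D4:**
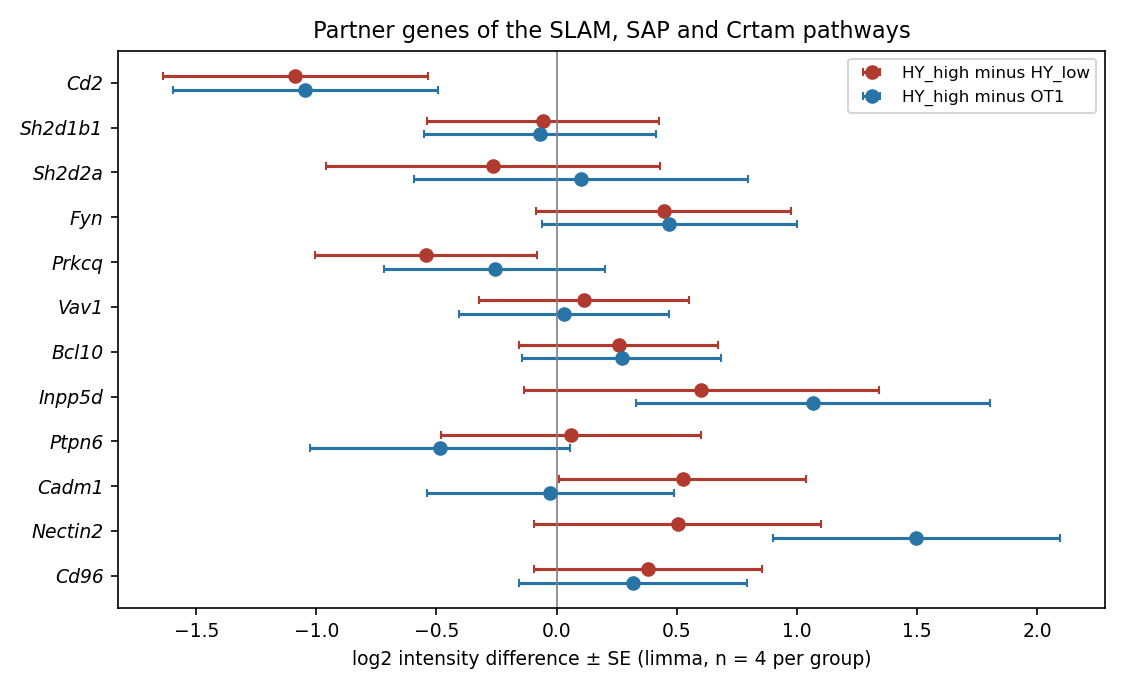
Log2 intensity differences with their limma SE (n = 4 per group) of the 12 tested partner genes, for HY_high minus HY_low in red and HY_high minus OT1 in blue. Cd2 lies at -1.09 and -1.05, and 10 of the other 11 lie between -0.54 and 1.07 in both, with Nectin2 at 1.5 against OT1.

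Markers of NK cells were set beside Cd244a and Crtam, since NK cells carry both proteins. Of 9 such markers 7 were measured and 6 tested, and 3 lay below 8 on all arrays. Their summed intensity was 71.4 to 224 in OT1, 23.3 to 131 in HY_low and 148 to 350 in HY_high, with Klrd1 the brightest, a subunit of NK lectin receptors. Klrd1 had geometric means of 99.99, 42.9 and 198 in the same order. Fcer1g, an adaptor of Fc and NK receptors, read 16.36, 11.04, 5.17 and 5.02 on HY_high arrays 1 to 4 and at most 1.95 elsewhere. On this probe set the log2 difference of HY_high from OT1 was 2.82 ± 0.49 (limma adjusted p = 0.0229, or 0.00159 with the block). From HY_low it was 2.625 ± 0.49 (limma adjusted p = 0.0825, or 0.00718 with the block). The dimmer probe set of Fcer1g did not follow, with geometric means of 1.81, 1.51 and 1.53 in OT1, HY_low and HY_high. Tyrobp (DAP12), a partner of activating NK receptors, had geometric means of 3.40, 5.63 and 16.2. Its log2 difference of 2.25 ± 0.64 between HY_high and OT1 passed only with the block (limma adjusted p = 0.406, or 0.012 with the block). Tyrobp did not pass against HY_low, and the other tested NK markers passed in no comparison. Eomes, a transcription factor of NK cells and effector T cells, had geometric means of 5.71, 1.83 and 2.68. It was lower in HY_high than in OT1 within 4 of 4 numbers without passing (log2 difference -1.09 ± 0.47, limma adjusted p = 1), and its other probe set gave -1.07. The defining NK marker Ncr1 was at 1.86, 1.26 and 1.10, the cytotoxic genes Gzma and Prf1 stood at 3.71 and 3.39 in HY_high against 3.62 and 4.17 in HY_low, and Nkg7 had no probe set. The part of NK cells in the values of Cd244a and Crtam was not tested.

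The order of genes on chromosome 1 in the RefSeq annotation of GRCm38.p6 was used to look around Cd244a. Among the 15 protein-coding genes on each side, 16 other than the SLAM genes were measured and 15 tested. The window ran from B4galt3 to Casq1. Fcer1g, which lies on chromosome 1 outside it, was not among them. In limma 0 of the 15 passed in any of the 3 comparisons, with or without the block, and 0 had an unadjusted p under 0.05. Between HY_high and HY_low their log2 differences ran from -0.93 to 0.68 with a median of 0.01, and between HY_high and OT1 from -0.78 to 0.27 with a median of -0.11. Itln1, the gene next to Cd244a on the other side from Ly9, had 0.34 and -0.25.

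**Figure D5:**
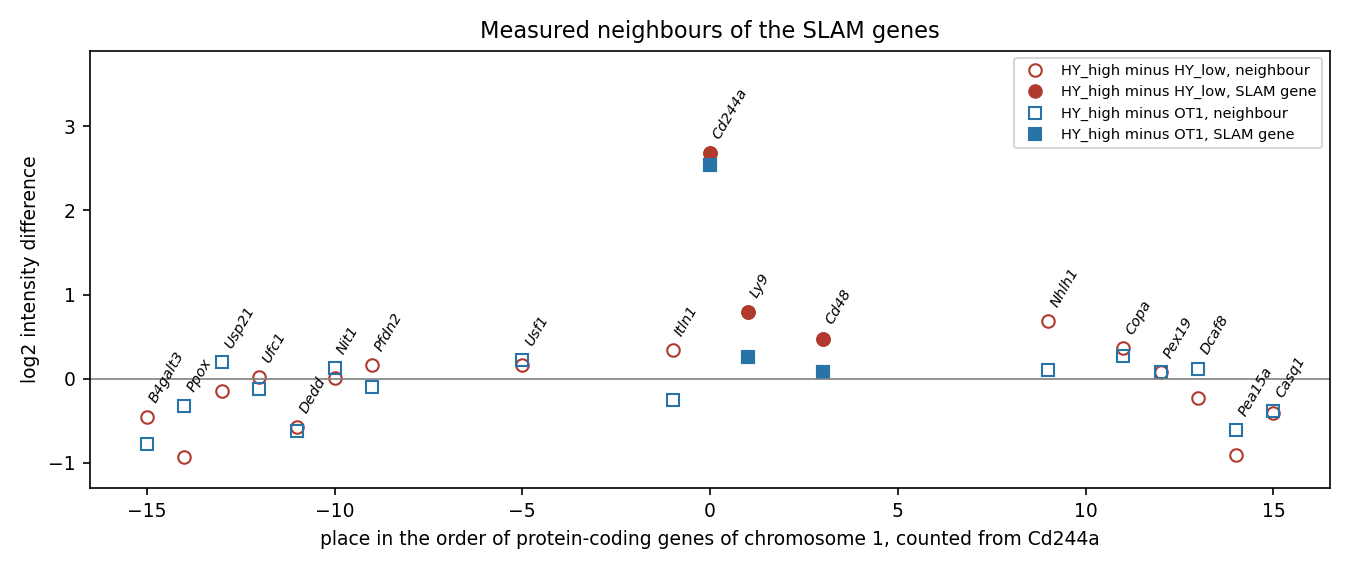
Log2 intensity difference against the place of each tested gene in the order of protein-coding genes of chromosome 1, counted from Cd244a at 0, with red circles for HY_high minus HY_low and blue squares for HY_high minus OT1, filled for the SLAM genes. Cd244a lies at 2.68 and 2.54, Ly9 and Cd48 at most at 0.79, and the 15 neighbours between -0.93 and 0.68.

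The genes whose pattern over the 12 arrays was most like that of each gene were listed by Pearson's r of log2 intensity, among 3597 probe sets with a geometric mean of at least 8. The arrays of a number deviate together, so these are descriptions of 12 arrays that are not independent. For each gene the highest r was picked from 3597 probe sets, and how high it would run for unrelated genes was not tested. Nearest to Cd244a were Unc119b (r = 0.905), Osbpl5 (0.844) and Bcl2l11 (0.789), the gene of the death-promoting protein Bim. Bcl2l11 read 68.98, 133.62, 71.36 and 87.9 on the HY_high arrays and 20.49 to 40.94 on all others. Nearest to Crtam were Trbv13-2, a receptor beta segment (0.855), the interferon-induced gene Ifi27l2a (0.847) and Pdcd1, which encodes the inhibitory receptor PD-1 (0.827). Trbv13-2 had geometric means of 2.34 in OT1, 19.6 in HY_low and 31.1 in HY_high. The OT1 and HY groups carry different transgenic receptors, so the pattern of a receptor segment cannot be told apart from that design. Pdcd1 had geometric means of 5.81 in OT1, 16.3 in HY_low and 21.6 in HY_high.

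For Cd48 the nearest were Zfp106 (0.953), Vti1b (0.925) and Wdr77 (0.923). Vti1b, like Cd48, was lowest on array 1 and highest on array 4 of each group, at 12.6 to 61.28 in OT1, 5.8 to 49.01 in HY_low and 9.63 to 59.89 in HY_high. Nearest to Ly9 were Rere (0.858), Nup54 (0.830) and Myd88 (0.811). Nearest to the dim probe set of Sh2d1a were Tmem50b (0.834), Slc25a25 (0.822) and Lgals3bp (0.789). When only deviations from the group means were used, the nearest to Cd244a were Tm7sf2 (0.825), Chrne (0.748) and Aopep (0.744), and to Crtam Sptlc2 (0.885), Pdxdc1 (0.879) and Afg3l1 (0.848), so none of the nearest over all arrays was among them. For Cd48 Zfp106 was still among the nearest (0.959), beside Bcl2l13 (0.978) and Hint1 (0.957).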

How the data were processed

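The authors deposited 1 table of 12488 probe sets and 12 arrays, with intensities on a linear scale. Their background correction, summary and scaling were not given in the sources used here. Leaving out 66 control probe sets left 12422, of which 10833 matched 1 gene in the platform's annotation, 396 several and 1193 none. Symbols were updated by gene ID. Array medians differed by a factor of 1.19 at most, so values were used as deposited, on a log2 scale. Probe sets were tested if their mean log2 value exceeded the 30th percentile, an intensity of 1.76, which left 8695. One limma fit (3.58.1, R 4.3.3) held the 3 group means over 12 arrays, with a trend on intensity, two-sided tests and Benjamini-Hochberg adjustment over all tested probe sets. The script was tested on simulated data.

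The array numbers come from the sample titles. They pair the arrays by the data alone: the 12 same-numbered pairs of different groups had correlations of 0.341 or more, and the 36 other pairs of 0.163 or less. A blocked fit by array number, with 6 degrees of freedom against 9, stands beside the main one. Genes of the lists were read from their brightest probe set.

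The members and the lists were chosen with earlier results of these data known. Named were all members, partner genes past the threshold in either fit, 8 partner genes fixed by name (Cd2, Slamf6, Cd84, Fyn, Prkcq, Zbtb16, Cadm1, Scrib) where measured, and the 3 genes most like each member. Sh2d1b1, Inpp5d, Nectin2 and Cd96, the NK and T cell markers, the neighbours and the motifs were singled out after values or sequences were seen. Alternatives were the block, no filter, intensities under 8 set to 8, quantile normalization, scaling to one median, and leaving out each array.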

Additional observations from a re-analysis of the deposited data

How the results depend on the processing

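Over 17 alternatives the log2 difference of Cd244a ran from 1.14 to 3.12 between HY_high and HY_low and from 1.14 to 2.66 between HY_high and OT1. That of Crtam ran from 0.43 to 1.99 and from 0.47 to 3.07, with the lowest value of all 4 under the floor at 8. The direction of both genes held in both comparisons under all 17. Among these, the block, the missing filter and leaving out an array of the third group cannot change a difference. Where groups do not overlap, as for Cd244a, leaving out 1 array cannot change the direction either. Small differences changed sign for Cd244a between HY_low and OT1, for Cd48 between HY_high and OT1, and for Sh2d1a in both of these comparisons.

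The count of the 5 genes past the threshold between HY_high and HY_low was 0, and 1 with the replicate block or the floor at 8. It ran from 0 to 1 when 1 array was left out. Between HY_high and OT1 it was 2, but 0 without the filter, 1 with the floor, 1 with scaling to one median and 0 to 2 with 1 array left out. For the partner genes it was 0 there, and 1 with the block. With the floor the member that passed was Cd244a in both comparisons. Its arrays outside HY_high all lie below 8, so the floor gives them 1 value and no spread. Over all probe sets the count between HY_high and HY_low was 2, and 30 with the block, 0 without the filter, 4 with the floor, 1 with scaling and 1 to 4 with 1 array left out (4 without HY_low array 1). Between HY_low and OT1 it was 2, and 8 with the block. Between HY_high and OT1 it was 15, and 118 with the block, 9 without the filter, 8 with the floor and 6 to 17 with 1 array left out. It was 6 without OT1 array 2 or HY_high array 3, 7 without OT1 array 4 or HY_high array 2, and 9 without OT1 array 3 or HY_high array 4. The cause of these moves was not tested. The floor leaves 6224 probe sets to test. Signal limits Sh2d1a, Cd244a and Crtam, of whose 12 arrays 11, 8 and 7 lie below 8.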
